A study of Mus musculus with 12 samples.

Results

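The fibroblast growth factor (FGF) genes described here are 8 of the 24537 genes in a table of RNA sequencing values: the receptors Fgfr1, Fgfr2 and Fgfr3, the ligands Fgf1, Fgf2, Fgf7 and Fgf10, and the FGF carrier protein Fgfbp1. They were taken by gene symbol. Fgfr1, Fgf7 and Fgf10 stood for the stromal side and Fgfr2, Fgfr3 and Fgfbp1 for the epithelial side, and these 3 and 3 genes were compared across 4 groups of cultured mouse cells. ADSCs are Pdgfra-positive stromal cells of subcutaneous adipose tissue, grown in DMEM with 10% FBS. In vitro iSEPs (induced stratified epithelial progenitor cells) are epithelial cells converted from such ADSCs in culture. In vivo iSEPs were converted from Pdgfra-positive ADSCs within the animal and cultured from the epithelial tissue that formed. Keratinocytes are primary cultures from back skin. Every library, the controls included, comes from the strain Pdgfra-creERxLSL-tdTomato, in which the Pdgfra promoter drives an inducible Cre and a red reporter marks recombined cells. The 3 epithelial groups grew in keratinocyte medium without serum. Medium and cell type therefore change together in every comparison against ADSCs, and the effect of the medium cannot be told apart from that of the cell type. Each group holds 3 libraries, from mice numbered 1 to 3, and the labels tie a number to 1 animal across the groups. The animals' ages, and how the conversion was brought about, are not given in the sources used here.

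FGF signalling runs between tissue layers. Stromal cells make Fgf7 and Fgf10, which act on the splice form of Fgfr2 found in epithelia (the IIIb form), while stromal cells themselves carry mainly Fgfr1 and the IIIc forms. In skin, Fgf7 is known as keratinocyte growth factor, and Fgfbp1 is a secreted protein that releases FGFs held on heparan sulfate of the matrix. A gene-level table does not resolve the IIIb and IIIc forms, so every receptor value below is a sum over splice forms.

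Values are in FPKM (fragments scaled to transcript length and to the library's total), a unit that is per length, so that levels of different genes can be set side by side. Depth recovered from the low values was 2.1e+07 to 2.78e+07 reads in listed genes per library, and 10845 to 11349 genes reached 1 FPKM. The labelled cell types carried their defining markers: 8 stromal markers (such as Pdgfra, Col1a1 and Postn) summed to between 7079 and 10081 FPKM in ADSCs against 3.68 to 185 FPKM in the other 3 groups, and 6 basal keratinocyte markers (such as Krt5, Krt14 and Trp63) summed to 11.4 to 12.6 FPKM in ADSCs against 10263 to 23340.5 FPKM elsewhere. Of the 7 stromal markers in the fit, all 7 fell against ADSCs in in vivo iSEPs, and 6 did so both in keratinocytes and in in vitro iSEPs. The exception was Dcn, a matrix proteoglycan, at 27.2 to 116 FPKM in ADSCs, 18.0 to 30.2 FPKM in in vitro iSEPs (adjusted p = 0.134) and 15.6 to 19.2 FPKM in keratinocytes (adjusted p = 0.0545). Markers of adipocytes summed to at most 0.607 FPKM in any library, with Adipoq and Plin1 at 0 in all 12, and those of melanocytes to at most 2.34 FPKM, with Tyr at 0 in all 12. Endothelial markers summed to at most 8.96 FPKM, and no endothelial marker was at 0 throughout. Immune markers summed to 6.25 to 54.4 FPKM in ADSCs and to at most 1.23 FPKM elsewhere, with Cd3e at 0 in all 12 libraries. Pericyte and smooth muscle markers summed to 114 to 141 FPKM in ADSCs and to at most 8.6 FPKM elsewhere. Most of the ADSC sum was Pdgfrb (102 to 126 FPKM), with Rgs5 at 0.275 to 0.797 FPKM and Cspg4 at 0.932 to 4.25 FPKM. The 8.6 FPKM was in in vivo mouse 3, where Myh11 held 7.78 FPKM. Simple epithelial markers summed to 21.8 to 47.6 FPKM in ADSCs and 126 to 169 FPKM in keratinocytes. Their sums were 23.9 to 134 FPKM in in vitro and 9.17 to 249 FPKM in in vivo iSEPs. Krt19 made up most of the ADSC sums, at 17.8, 44.7 and 45.6 FPKM in mice 1 to 3. This keratin was lower than in ADSCs in all 3 epithelial groups. Its log2 differences were -2.93 (in vitro), -3.11 (in vivo) and -3.27 (keratinocytes), with limma adjusted p = 0.0171, 0.0141 and 0.0098. Keratinocyte mouse 1 still held 17.5 FPKM of Krt19. The in vivo iSEP library of mouse 3 stood apart from the other 2 of its group, with Krt8, a keratin of simple epithelia, at 103 FPKM against 0.159 and 0.166 FPKM. Krt8 was not particular to that library: keratinocytes held 33.6, 21.9 and 27.9 FPKM, and in vitro mouse 2 held 7.17 FPKM. Member values that move by over 1.5 times without in vivo mouse 3 are also given without it, a choice made after its values were seen.

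Promoter windows of 4 members that moved in opposite directions are shown first, since the members are compared by where they are transcribed. Each window is the 250 bases upstream of an annotated start, from RefSeq on GRCm38.p6 (the assembly of the files' mm10), printed 5′ to 3′ on the gene's strand, with a GC box (GGGCGG on either strand) in capitals. They are Fgfr2 at chr7:130266809-130267058 on the minus strand, Fgfr3 at chr5:33722056-33722305 on the plus strand, Fgfbp1 at chr5:43981800-43982049 on the minus strand and Fgf7 at chr2:126034408-126034657 on the plus strand.
Fgfr2: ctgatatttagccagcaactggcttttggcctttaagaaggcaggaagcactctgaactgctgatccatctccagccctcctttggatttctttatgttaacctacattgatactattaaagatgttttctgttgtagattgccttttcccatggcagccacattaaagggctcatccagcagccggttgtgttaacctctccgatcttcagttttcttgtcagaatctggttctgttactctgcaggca
Fgfr3: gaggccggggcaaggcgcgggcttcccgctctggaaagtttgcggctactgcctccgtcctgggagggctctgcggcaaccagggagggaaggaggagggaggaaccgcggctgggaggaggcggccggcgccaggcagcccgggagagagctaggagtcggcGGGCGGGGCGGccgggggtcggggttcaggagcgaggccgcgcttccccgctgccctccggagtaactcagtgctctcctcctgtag
Fgfbp1: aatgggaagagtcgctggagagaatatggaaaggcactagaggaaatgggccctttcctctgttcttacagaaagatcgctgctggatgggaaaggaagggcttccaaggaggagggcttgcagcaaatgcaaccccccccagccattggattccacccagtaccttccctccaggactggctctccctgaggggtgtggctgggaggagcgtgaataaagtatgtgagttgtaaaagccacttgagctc
Fgf7: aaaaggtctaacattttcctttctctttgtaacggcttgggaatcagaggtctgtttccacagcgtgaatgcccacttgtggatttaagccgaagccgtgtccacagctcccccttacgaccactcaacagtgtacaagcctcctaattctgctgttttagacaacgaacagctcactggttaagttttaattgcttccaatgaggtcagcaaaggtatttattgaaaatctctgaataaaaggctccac
The AP-2 sequence GCCNNNGGC, the grainyhead-like sequence AACCGGTT and the E-box CACGTG, searched on both strands because factors of these families act in epidermis or on growth genes, had no match in the windows of the 6 members that have one (Fgfr2, Fgfr3, Fgf2, Fgf7, Fgf10 and Fgfbp1). Of all 32851 windows of this length, 13.7%, 0.116% and 6.02% hold them. The GC box, added after the windows had been seen, is in 32.7% of all windows. It had 2 matches in the Fgfr3 window shown and none in the other 3 shown. Of the windows not shown, a further one of Fgfr3 had 3 matches, and those of Fgf2 and Fgf10 had 1 each. The Fgfr3 window holds 24 CpG dinucleotides and 72.8% G or C, against 2 and 44% in Fgfr2, 3 and 53.6% in Fgfbp1, and 6 and 43.6% in Fgf7, where the median over all windows is 6 CpG and 52.4%. The epithelial members thus span windows rich and poor in CpG.

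Of the 8 members, 6 passed the filter of 1 FPKM in at least 3 libraries, and Fgf1 and Fgf10 did not. In the limma fit over 12364 genes, with calls made at an adjusted p below 0.05, all 6 of them were called in each comparison with ADSCs, 3 higher and 3 lower. Against that, 53.8% of all genes tested were called between in vitro iSEPs and ADSCs, 47.6% between in vivo iSEPs and ADSCs, and 53.5% between keratinocytes and ADSCs. The libraries of all 6 also did not overlap with those of ADSCs in any of the 3 comparisons, as was so for 63.7%, 54.2% and 69.5% of all genes in that order. Calls higher than in ADSCs took 32.1%, 27.6% and 32.8% of all genes in that order, and calls lower took 21.7%, 20% and 20.7%. Fgf2 entered the fit only through the ADSCs, where it is high, so neither its calls nor its lack of overlap adds to those counts. The 3 comparisons share the ADSC libraries and are therefore given side by side. Scaling each library to a common median moved the median difference of all genes from 0.15, 0.14 and 0.18 to -0.013, 0.016 and -0.0074, and the share of called genes that were higher than in ADSCs from 59.7%, 57.9% and 61.4% to 47.3%, 48.1% and 46.8%. No member changed direction against ADSCs under it, and Fgfr3 in keratinocytes alone lost its call. In bulk samples such as these, fewer cells of a type and less RNA per cell cannot be told apart.

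Fgfr1, the main FGF receptor of mesenchymal cells (NM_001079909, mm10 chr8:25518759-25575718), was measured at 64.9, 57.2 and 58.4 FPKM in the ADSCs of mice 1, 2 and 3. It was at 7.16, 21.2 and 15.3 FPKM in in vitro iSEPs, 2.82, 2.31 and 11.9 FPKM in in vivo iSEPs, and 10.6, 9.93 and 8.35 FPKM in keratinocytes. All 3 ADSC libraries lay above the other 9, and the 3 epithelial groups overlapped one another. Mean levels were 60.2 ± 4.12 FPKM in ADSCs (SD, n = 3 here and below), 14.6 ± 7.06 FPKM in in vitro iSEPs, 5.68 ± 5.4 FPKM in in vivo iSEPs and 9.62 ± 1.15 FPKM in keratinocytes. Relative to ADSCs, Fgfr1 fell by 2.09 on the log2(FPKM + 1) scale in in vitro iSEPs (SE 0.47, adjusted p = 0.00304), by 3.48 in in vivo iSEPs (adjusted p = 9.87e-05; without mouse 3 there, the mean was 2.56 FPKM and the fall 4.10) and by 2.53 in keratinocytes (adjusted p = 0.000894; limma throughout). Without mouse 1, the adjusted p of the in vitro iSEPs against ADSCs was 0.0502. Fgfr1 was thus lower in the epithelial cultures and never near 0.

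Fgfr2, the receptor through which Fgf7 and Fgf10 act on epithelia (NM_201601, mm10 chr7:130162451-130266808), had the opposite order. Its ADSC libraries held 4.07, 2.41 and 3.37 FPKM. The in vitro iSEPs held 71.0, 26.7 and 32.5 FPKM, the in vivo iSEPs 38.3, 44.3 and 16.1 FPKM, and the keratinocytes 33.9, 20.1 and 18.6 FPKM. Every epithelial library lay above every ADSC library, and the epithelial groups overlapped. The rise over ADSCs was 13.2-fold in mean FPKM in in vitro iSEPs (log2 3.26, SE 0.42, adjusted p = 6.23e-05), 10.0-fold in in vivo iSEPs (log2 2.89, adjusted p = 0.000177) and 7.38-fold in keratinocytes (log2 2.53, adjusted p = 0.000412).

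Fgfr3, known in skin as a receptor of keratinocytes (NM_001163217, mm10 chr5:33722306-33737068), was the receptor that differed most among the epithelial groups. ADSCs held 0.219, 0.170 and 0.322 FPKM, which is 28, 20 and 36 reads. In vitro iSEPs held 65.8, 24.8 and 50.6 FPKM, in vivo iSEPs 15.1, 25.7 and 3.465 FPKM, and keratinocytes 3.21, 2.23 and 2.74 FPKM. All 3 in vitro iSEP libraries and all 3 in vivo iSEP libraries lay above all 3 keratinocyte libraries, the last by little in mouse 3, and the iSEP groups overlapped each other. Against ADSCs, Fgfr3 rose by 5.18 on the log2 scale in in vitro iSEPs (SE 0.54, adjusted p = 1.25e-05), by 3.33 in in vivo iSEPs (adjusted p = 0.000392) and by 1.58 in keratinocytes (adjusted p = 0.0286). The keratinocyte call depended on the setting, although the ADSC and keratinocyte libraries did not overlap. It was lost in 10 of 16 alternatives. These were the omission of mouse 1 (adjusted p = 0.153), of mouse 2 (0.0558) and of any 1 ADSC or keratinocyte library (at most 0.076), median scaling (0.0512) and quantile normalization (0.0514). It was kept in the other 6, with a lowest adjusted p of 3.77e-05. Among these were the fit of the 2 groups compared alone and a pseudocount of 0.1.

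**Figure D1:**
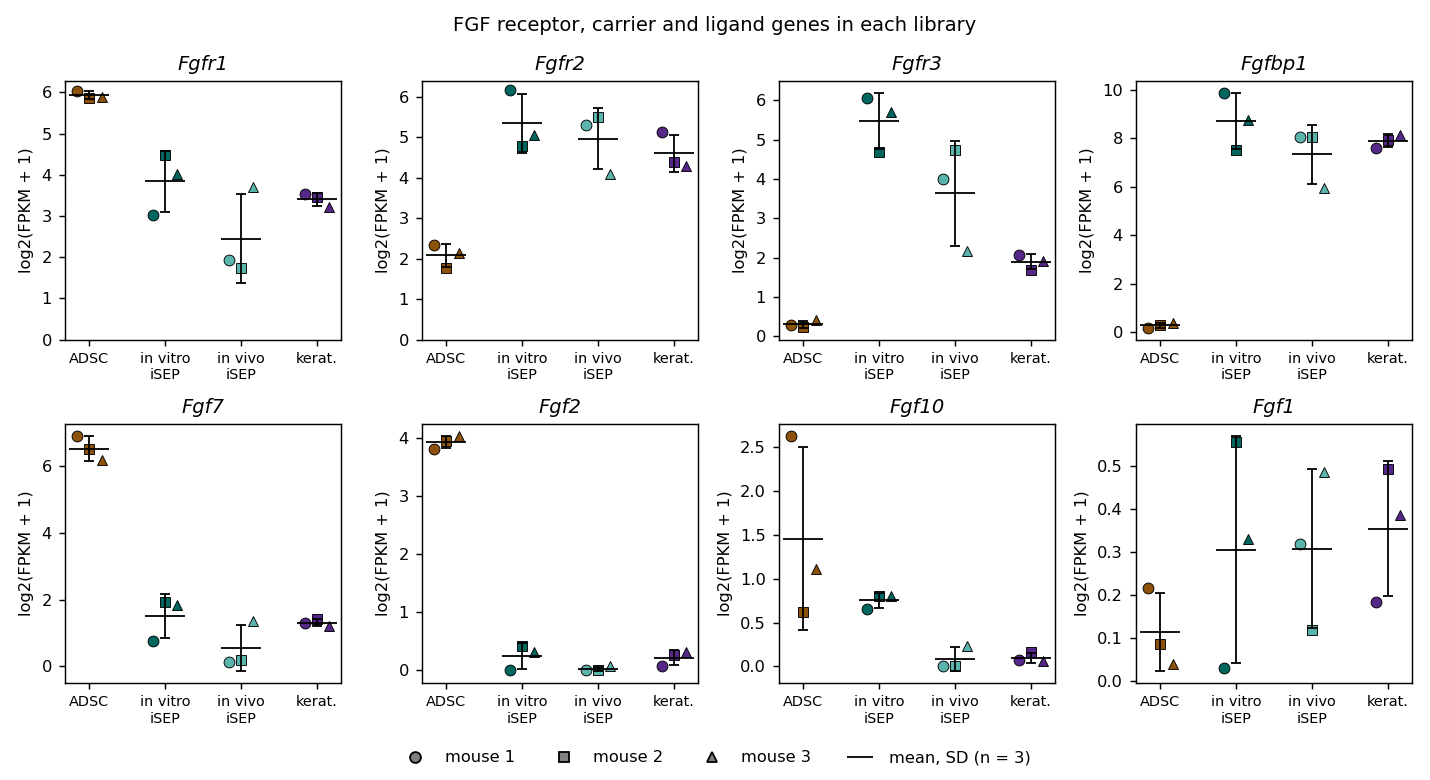
Level of each of the 8 genes as log2(FPKM + 1) in each of the 12 libraries, by group, with a symbol for the mouse and bars for the group mean and SD. ADSCs stand above the other groups for Fgfr1, Fgf2 and Fgf7 and below them for Fgfr2, Fgfr3 and Fgfbp1, while no library exceeds 0.471 FPKM for Fgf1.

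The make-up of the receptor transcripts follows from these levels. As a share of the summed FPKM of Fgfr1 to Fgfr4, Fgfr1 took 94.5 ± 1.02% in ADSCs, with 5.11 ± 0.962% for Fgfr2 and 0.373 ± 0.127% for Fgfr3. Keratinocytes held 27 ± 4.41% Fgfr1, 65.4 ± 4.98% Fgfr2 and 7.62 ± 1.39% Fgfr3. In vivo iSEPs held 15.3 ± 19.5% Fgfr1, 60.2 ± 8.5% Fgfr2 and 24.5 ± 12.4% Fgfr3. The Fgfr1 share there was 5.02%, 3.19% and 37.8% in mice 1 to 3, and without mouse 3 the mean shares were 4.10%, 64.7% and 31.2%. Only in in vitro iSEPs was the mean share of Fgfr3 (43.8 ± 8.84%) above that of Fgfr2 (39.7 ± 8.55%), and there the order held in 1 of the libraries, that of mouse 3 (51.5% against 33.0%). Fgfr2 led in every in vivo iSEP and keratinocyte library, and Fgfr1 in every ADSC library. Fgfr4 took at most 0.0317% in any library. The shares are a description and were not tested.

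The ratio of Fgfr2 to Fgfr1, taken within a library, does not depend on the library's scaling. It was 0.0627, 0.0422 and 0.0576 in the ADSCs of mice 1 to 3. In vitro iSEPs had 9.91, 1.26 and 2.12, in vivo iSEPs 13.6, 19.2 and 1.36, and keratinocytes 3.21, 2.02 and 2.23. Fgfr2 thus outweighed Fgfr1 in all 9 epithelial libraries, by little in mouse 2 of the in vitro and mouse 3 of the in vivo iSEPs. The summed receptor level was 63.7 ± 4.88 FPKM for ADSCs, 105 ± 36 FPKM for in vitro iSEPs, 53.4 ± 20.6 FPKM for in vivo iSEPs and 36.6 ± 9.76 FPKM for keratinocytes, and the libraries of ADSCs overlapped with those of in vivo iSEPs alone.

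**Figure D2:**
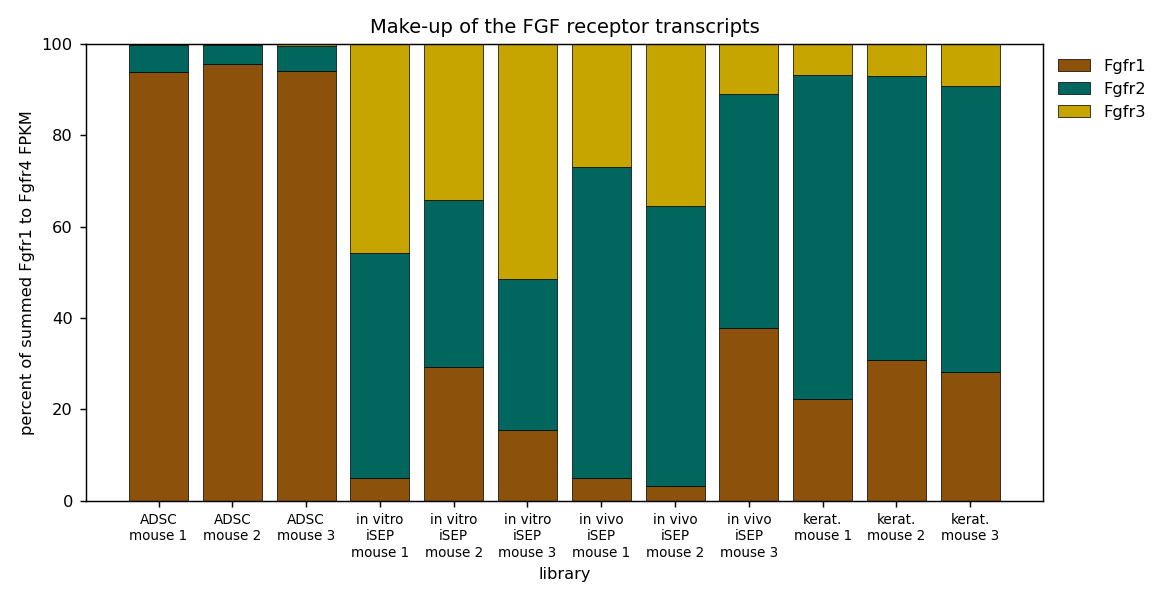
Shares of Fgfr1, Fgfr2 and Fgfr3 in the summed FPKM of Fgfr1 to Fgfr4, as stacked bars, 1 bar for each of the 12 libraries. Fgfr4, at most 0.0317%, is not drawn. Fgfr1 fills 93.8% to 95.7% of the ADSC bars. The Fgfr3 segment is on average largest in the in vitro iSEPs (34.1% to 51.5%) and small in keratinocytes (6.72% to 9.22%). In vivo mouse 2 (35.5%) lies above in vitro mouse 2 (34.1%).

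Among the ligands, Fgf7, the stromal growth factor for keratinocytes (NM_008008, mm10 chr2:126034658-126091185), was the most abundant in ADSCs. They held 119.7, 90.5 and 71.5 FPKM. In vitro iSEPs held 0.672, 2.82 and 2.585 FPKM, in vivo iSEPs 0.080, 0.136 and 1.55 FPKM, and keratinocytes 1.43, 1.67 and 1.31 FPKM. The ADSC libraries lay far above the rest, and the epithelial groups overlapped. Mean Fgf7 was 46.4-fold lower in in vitro iSEPs than in ADSCs (log2 -5.03, SE 0.38, adjusted p = 8.55e-07), 159-fold lower in in vivo iSEPs (log2 -5.99, adjusted p = 2.17e-07; without mouse 3, whose value carries that mean, 870-fold and log2 -6.39, on 6 and 11 reads) and 63.9-fold lower in keratinocytes (log2 -5.23, adjusted p = 5.99e-07).

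Fgf10, the stromal ligand best known from limb and lung budding (NM_008002, mm10 chr13:118714699-118792573), was low throughout. ADSCs of mouse 1 held 5.19 FPKM, against 0.544 and 1.17 FPKM in mice 2 and 3. In vitro iSEPs held 0.572, 0.746 and 0.750 FPKM, in vivo iSEPs 0, 0.007 and 0.179 FPKM, and keratinocytes 0.051, 0.121 and 0.044 FPKM. The in vivo mean was 0.062 FPKM, and 0.0035 FPKM without mouse 3. The 0 of in vivo mouse 1 allows up to 0.0234 FPKM (3 reads, counting error only). The ADSC and in vitro iSEP libraries overlapped, and both lay above the in vivo iSEPs and the keratinocytes. In the exact permutation test of 3 against 3 libraries, two-sided, no difference could go below p = 0.1, and the adjusted p over the 12 tests of Fgf1 and Fgf10 was 0.3 for Fgf10 in each of the 4 comparisons without overlap. In the limma fit without a filter, Fgf10 was 1.38 lower on the log2 scale in in vivo iSEPs than in ADSCs (adjusted p = 0.0205) and 1.36 lower in keratinocytes (adjusted p = 0.0193). In vitro iSEPs were not called against ADSCs there (difference -0.70, 95% interval -1.58 to 0.18, adjusted p = 0.19). Of the stromal members, Fgf10 is thus the one whose in vitro iSEP values lay within the range of ADSC values.

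Fgf2, a ligand of many cell types that lacks a classical secretion signal (NM_008006, mm10 chr3:37348653-37404830), held 13.0, 14.3 and 15.25 FPKM in ADSCs. Its listed transcript is 690 bases long, so these values rest on 287, 290 and 294 reads. In vitro iSEPs held 0, 0.339 and 0.234 FPKM (0, 7 and 4 reads), in vivo iSEPs 0, 0 and 0.045 FPKM (0, 0 and 1 read) and keratinocytes 0.048, 0.2 and 0.241 FPKM (1, 4 and 5 reads). The in vivo mean was 0.015 FPKM, and 0 without mouse 3. A library at 0 allows up to 0.144 to 0.169 FPKM (3 reads). ADSCs stood above every other library, and differences among the epithelial groups were not detectable at this depth. Fgf2 fell by 3.68, 3.90 and 3.71 on the log2 scale in the in vitro iSEPs, the in vivo iSEPs and the keratinocytes relative to ADSCs (adjusted p = 4.71e-09, 2.84e-09 and 3.95e-09). Fgf1, the ligand that binds every FGF receptor (NM_010197, mm10 chr18:38838673-38918699), ranged from 0.028 to 0.161 FPKM in ADSCs and from 0.020 to 0.471 FPKM in the epithelial groups. All 4 groups overlapped for Fgf1, and its exact permutation p was 0.2 or more in every comparison.

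The other secreted FGFs were nearly silent. Of 18 listed, 5 reached 1 FPKM in any library, 4 were at 0 in all 12, and the other 9 stayed at or under 0.723 FPKM. Fgf7 made up 79.5% to 84.6% of the summed ligand FPKM of ADSCs, whose sum was 90.0 to 141 FPKM, while the sum in the epithelial libraries was 1.31 to 6.08 FPKM. Fgf18, a ligand known from bone and the hair follicle, held 0.838, 1.88 and 2.81 FPKM in in vivo iSEPs and 0.152, 0.090 and 0.065 FPKM in keratinocytes. These groups did not overlap, and Fgf18 was 1.30 higher on the log2 scale in in vivo iSEPs (adjusted p = 0.00961), a call that was lost without mouse 2 (adjusted p = 0.267), without mouse 3 (0.0797) and in a fit of those groups alone (0.0607). It took 46.1% to 69.9% of the small ligand sum of in vivo iSEPs. ADSCs held 1.72, 1.09 and 1.45 FPKM of Fgf18, above all keratinocyte libraries (log2 difference of keratinocytes -1.13, adjusted p = 0.00257). None of the 4 intracellular FGF homologous factors passed the filter. Of these, Fgf13 held 0.926 to 1.97 FPKM in keratinocytes, where 2 libraries reached 1 FPKM, against at most 0.797 FPKM in any other library. It was not tested.

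Fgfbp1, the carrier (NM_008009, mm10 chr5:43978858-43981799), had the widest range of the members. ADSCs held 0.131, 0.228 and 0.3 FPKM, which is 5, 8 and 10 reads. In vitro iSEPs held 935, 185 and 427 FPKM, in vivo iSEPs 263, 267 and 60.03 FPKM, and keratinocytes 195, 245 and 285 FPKM. The lowest epithelial library, in vivo mouse 3, was still far above the highest ADSC library, and the epithelial groups overlapped. Fgfbp1 rose by 8.43 on the log2 scale in in vitro iSEPs (SE 0.60, adjusted p = 6.18e-07), by 7.06 in in vivo iSEPs (adjusted p = 2.82e-06) and by 7.62 in keratinocytes (adjusted p = 1.37e-06). Its relative Fgfbp3 held 5.37 ± 2.92 FPKM in ADSCs and 16.0 ± 7.55 FPKM in keratinocytes, a rise of 1.41 on the log2 scale (adjusted p = 0.0234), and 5.61 ± 1.5 and 5.17 ± 3.05 FPKM in in vitro and in vivo iSEPs, which were not called against ADSCs (adjusted p = 0.842 and 0.894). The keratinocyte call of Fgfbp3 was lost without mouse 3 (adjusted p = 0.161), without the ADSCs of mouse 2 (0.0958) or 3 (0.065) and without the keratinocytes of mouse 1 (0.0928) or 3 (0.0649).

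The iSEPs were then set beside the keratinocytes, a comparison of the converted cells with a primary epithelial culture. Of the 6 members in the fit, 1 was called between in vitro iSEPs and keratinocytes, where 11.3% of all genes tested were called, and 1 had libraries that did not overlap, against 40.8% of all genes. That gene was Fgfr3, 17.3-fold higher in mean FPKM in in vitro iSEPs (47.1 ± 20.7 against 2.73 ± 0.49 FPKM; log2 3.59, 95% interval 2.40 to 4.78, adjusted p = 0.00279). It was called in all 16 alternatives, with an adjusted p of at most 0.0479. The other 5 were not called, with differences and 95% intervals of 0.44 (-0.59 to 1.47) for Fgfr1, 0.74 (-0.19 to 1.66) for Fgfr2, 0.20 (-0.62 to 1.03) for Fgf7, 0.03 (-0.28 to 0.34) for Fgf2 and 0.81 (-0.52 to 2.14) for Fgfbp1. For Fgfr2 and Fgfbp1, these intervals still allow in vitro iSEPs to be higher by more than 1 on the log2 scale.

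Between in vivo iSEPs and keratinocytes, limma called 0 of the 6 members, where 7.48% of all genes were called (45.5% of them higher in in vivo iSEPs, and 56.5% with median scaling), and 1 had an unadjusted p below 0.05, as did 22.6% of all genes. Libraries did not overlap for 2 members, Fgfr3 and Fgf2 (whose nearest libraries hold 1 read each), and for 27.8% of all genes. The gene with the low unadjusted p was Fgfr3 again, with 14.8 ± 11.1 FPKM against 2.73 ± 0.49 FPKM (log2 1.75, 95% interval 0.56 to 2.94, adjusted p = 0.0779). Fgfr1 was lower by 0.95 (interval -1.99 to 0.08, adjusted p = 0.263). Without in vivo mouse 3, the call was made for 3 members: Fgfr3 was 2.48 higher (adjusted p = 0.00135), Fgfr1 fell by 1.57 (adjusted p = 0.0101) and Fgf7 fell by 1.15 (adjusted p = 0.0439). Leaving out mouse 3 from every group, Fgfr3 alone was called (log2 2.49, adjusted p = 0.0263). The 1 library thus decided these calls. Fgf2, at 0 to 1 read in the in vivo iSEPs, was not called (adjusted p = 0.469).

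Between in vivo and in vitro iSEPs, limma called 0 of 6 members, where 1.63% of all genes were called, and 4 had an unadjusted p below 0.05, as did 14.9% of all genes. All 4 had lower means in in vivo iSEPs, with log2 differences of -1.39 for Fgfr1 (95% interval -2.43 to -0.36, adjusted p = 0.18), -1.85 for Fgfr3 (-3.04 to -0.65, adjusted p = 0.128), -0.96 for Fgf7 (-1.78 to -0.13, adjusted p = 0.255) and -1.37 for Fgfbp1 (-2.70 to -0.04, adjusted p = 0.317). Without in vivo mouse 3, Fgfr1 was called (log2 -2.01, adjusted p = 0.00947). The libraries of the iSEP groups overlapped for all 6 members in the fit, while 15% of all genes did not overlap.

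**Figure D3:**
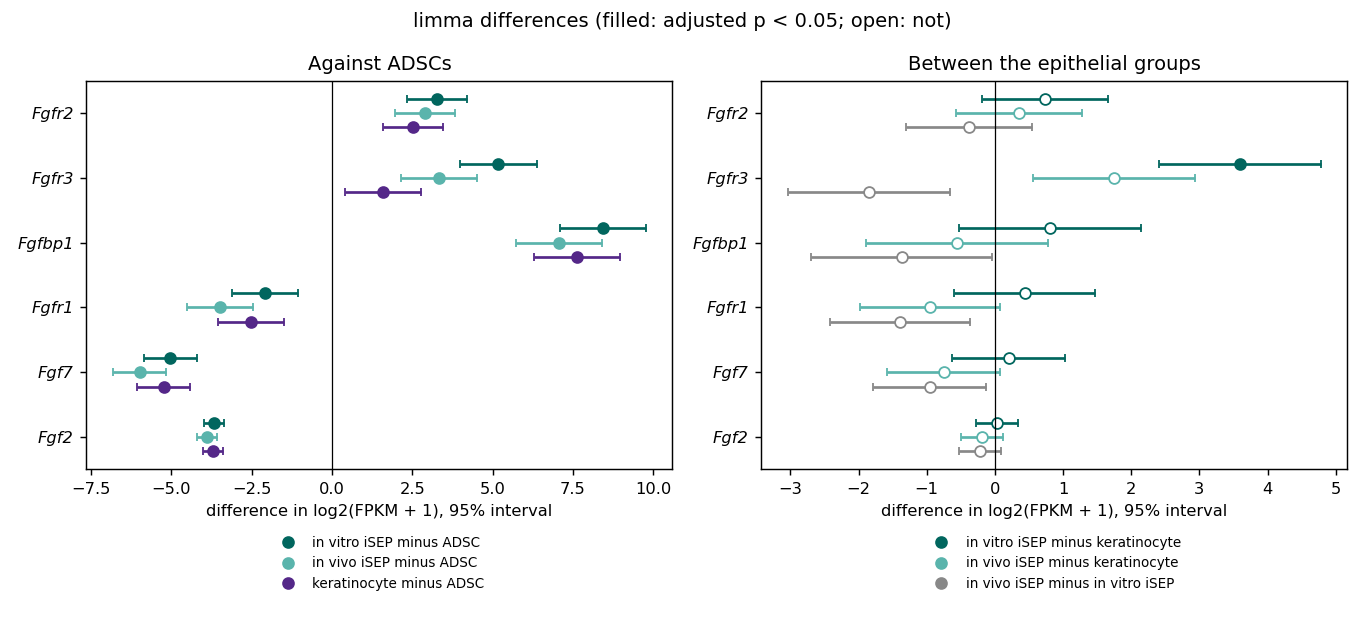
limma differences in log2(FPKM + 1) with 95% intervals for the 6 members in the fit, against ADSCs on the left and among the epithelial groups on the right, filled where the adjusted p is below 0.05. All points on the left are filled, and on the right Fgfr3 in in vitro iSEPs against keratinocytes (3.59) is the filled one. Fgf2 entered the fit through the ADSCs alone, so its filled points on the left add nothing.

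Within the iSEP groups, Fgf7 was highest and lowest in the same libraries as the median of the stromal markers. As a percent of the ADSC mean, the median of the 8 stromal markers was 0.861, 2.19 and 1.53 in the in vitro iSEPs of mice 1 to 3, 0.0362, 0.0812 and 0.512 in the in vivo iSEPs, and 0.209, 0.275 and 0.15 in the keratinocytes. Fgf7 stood at 0.716%, 3.00% and 2.75%, then 0.0852%, 0.145% and 1.65%, then 1.52%, 1.78% and 1.39% in the same order. In keratinocytes too, Fgf7 and that median were highest in mouse 2 and lowest in mouse 3. Fgfr1 stood much higher, at 11.9%, 35.3% and 25.4% in in vitro iSEPs, 4.69%, 3.83% and 19.8% in in vivo iSEPs and 17.6%, 16.5% and 13.9% in keratinocytes. It was lowest in in vivo mouse 2 and highest in keratinocyte mouse 1, where the markers' median was not. Single markers differed from that median: in keratinocytes, Pdgfra, Col1a1, Col1a2, Col3a1 and Postn were highest in mouse 1, as Fgfr1 was. Dcn, Lum and Thy1 were highest in mouse 2 there. Fgf10 in in vitro iSEPs stood at 24.9%, 32.4% and 32.6%, and was highest in mouse 3, where the markers' median was not. In keratinocytes, Fgfr1 thus kept at least 13.9% of its ADSC level while the median stromal marker kept at most 0.275%, although the highest single marker, Dcn, kept 21.8% to 27.0%. At least 6 of the 8 stromal markers reached 1 FPKM in some library of each epithelial group, and none was at 0 in all 12. The part of remaining stromal cells in these values was not tested.

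In each iSEP group, the epithelial members were lowest in the library where Fgfr1, Fgf7 and the median of the stromal markers were highest. In in vivo mouse 3, Fgfr2 (16.1 FPKM), Fgfr3 (3.465) and Fgfbp1 (60.03) were the lowest of their group and Fgfr1 (11.9) and Fgf7 (1.55) the highest. The in vitro iSEPs of mouse 2 showed the same arrangement, with Fgfr1 and Fgf7 highest and Fgfr2, Fgfr3 and Fgfbp1 lowest of their group. Keratinocytes did not show it, with Fgfbp1 lowest in mouse 1 and Fgfr2 in mouse 3. They varied little for Fgfr1, Fgfr3, Fgf7 and Fgfbp1, whose highest library was at most 1.46 times the lowest, and more for Fgfr2 (1.82 times).

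**Figure D4:**
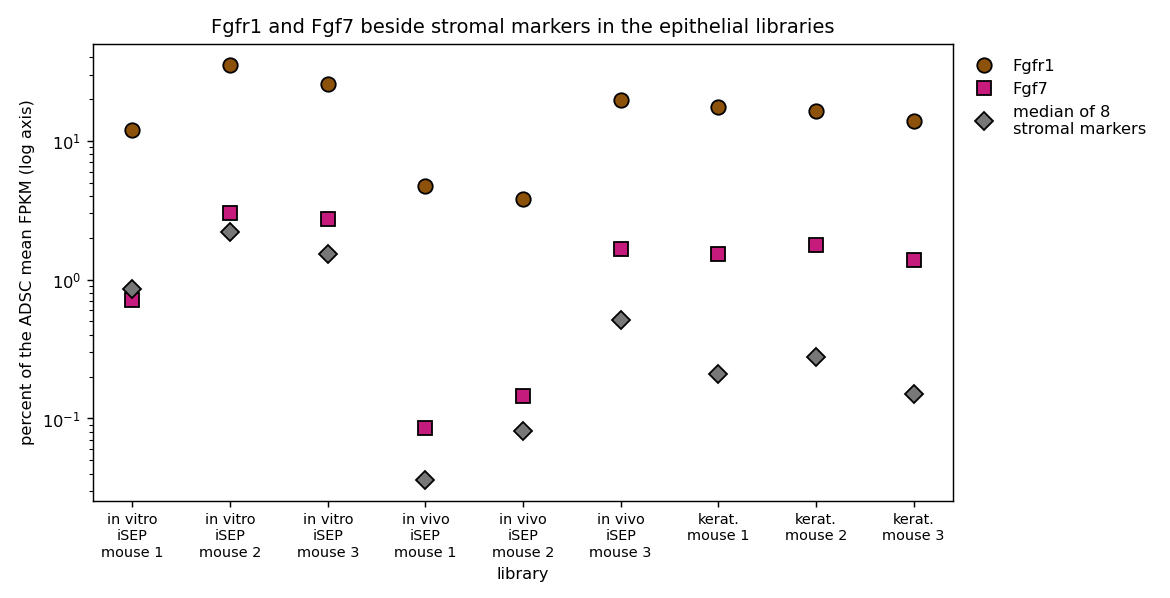
Fgfr1, Fgf7 and the median of 8 stromal markers as a percent of their ADSC mean (log axis) in the 9 epithelial libraries. Fgfr1 (3.83% to 35.3%) lies above Fgf7 (0.0852% to 3.00%) in every library, and both are highest in the same library of each iSEP group as the markers' median.

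Genes around the receptors were examined by list, each read against all genes tested, of which 32.1%, 27.6% and 32.8% rose and 21.7%, 20% and 20.7% fell in the 3 comparisons with ADSCs, in the order used above. Among the other receptor-like genes, Fgfrl1, a receptor without a kinase domain, held 8.97 ± 1.67 FPKM in ADSCs and 5.11 ± 1.29 in in vitro iSEPs (log2 -0.71, adjusted p = 0.0297), a call lost in 6 of 16 alternatives, such as without mouse 1 (adjusted p = 0.146). Of the coreceptors, the klothos Kl and Klb did not pass the filter. The FLRT proteins are membrane adhesion molecules that bind FGF receptors, and Flrt2 and Flrt3 rose in all 3 epithelial groups. Flrt3 went from 1.07 ± 0.253 FPKM in ADSCs to 25.4 ± 19.6 FPKM in in vitro iSEPs, 31.5 ± 14.9 FPKM in in vivo iSEPs and 17.2 ± 0.821 FPKM in keratinocytes (adjusted p = 0.00011, 4.59e-05 and 0.000196). Flrt2 rose from 8.95 ± 5 FPKM to 78.1 ± 17.8, 80.9 ± 22.8 and 62.8 ± 44.4 FPKM (adjusted p = 0.00016, 0.000162 and 0.000563). Flrt1 reached 1 FPKM in the keratinocytes alone and entered the fit through them, so its levels are given without a test: 1.69 ± 0.312 FPKM there, 0.383 ± 0.24 in in vitro iSEPs and 0.265 ± 0.241 in in vivo iSEPs.

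Among the listed splicing regulators of Fgfr2, Esrp1 and Esrp2 had the largest differences. Esrp1, an epithelial factor that favours the IIIb exon, held 0.026, 0.102 and 0.039 FPKM in ADSCs against 25.4 to 49.7 FPKM in the 9 epithelial libraries. Its log2 rise was 5.49, 4.996 and 5.33 in these 3 groups, the in vitro iSEPs first and the keratinocytes last (adjusted p = 4.37e-10, 1.07e-09 and 5.86e-10). Esrp2, its paralog, rose from 2.38 ± 0.716 FPKM to 53.2 ± 3.17, 43.7 ± 5.63 and 30.1 ± 4.13 FPKM (adjusted p = 9.04e-09, 1.42e-08 and 4.24e-08). Rbfox2, another listed splicing factor, fell by less, from 36.4 ± 4.01 FPKM to 19.6 ± 1.99, 21.3 ± 1.03 and 20.3 ± 3.7 FPKM (log2 -0.86, -0.74 and -0.82, adjusted p = 0.000299, 0.000914 and 0.00041). Of the 6 regulators tested, 2 rose and 1 fell in each iSEP group against ADSCs, and 4 rose and 1 fell in keratinocytes. Hnrnpm was among those that rose in keratinocytes (log2 0.48, adjusted p = 0.0162), a call lost in 5 of 16 alternatives. The list's median log2 difference was 0.17, 0.11 and 0.46, against 0.15, 0.14 and 0.18 over all genes.

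Heparan sulfate, the sugar chain that FGFs need to bind their receptors, is carried and modified by 2 further groups of genes, and in both more genes fell than rose. Of 11 core proteins tested, 6 fell and 2 rose in in vitro iSEPs, 7 fell and 3 rose in in vivo iSEPs, and 7 fell and 2 rose in keratinocytes, with list medians of -1.29, -0.95 and -0.81. Gpc6, at 23.9 ± 3.67 FPKM in ADSCs and between 0.171 and 0.369 FPKM in the other group means, entered the fit through the ADSCs alone, so its call adds nothing to that count, and the same holds for Hs3st1 among the enzymes and Spry4 among the feedback inhibitors below. Hspg2, the basement membrane protein perlecan, fell from 115 ± 13.7 FPKM to 7.82 ± 3.03, 20.7 ± 18.1 and 19.0 ± 2.45 FPKM (adjusted p = 5.65e-05, 0.000615 and 0.001), with an in vivo mean of 10.4 FPKM without mouse 3. Sdc1, the main syndecan of epithelia, rose from 70.2 ± 8.36 FPKM to 497 ± 28.8, 431 ± 100 and 867 ± 154 FPKM (adjusted p = 3.89e-07, 8.46e-07 and 4.83e-08). Gpc3 held 31.5, 22.4 and 8.56 FPKM in in vivo iSEPs, above every library of the other groups, which ranged from 0.162 to 4.16 FPKM. Against ADSCs, Gpc3 rose by 2.54 in in vivo iSEPs (adjusted p = 0.000302). Its rise over in vitro iSEPs was 2.38 (adjusted p = 0.0182), and that call was lost without mouse 1 (adjusted p = 0.0927), without mouse 2 (0.266), without in vivo mouse 2 (0.0685) and in a fit of those groups alone (0.285). Of 16 enzymes tested, 11, 11 and 10 fell and 2, 2 and 1 rose in the 3 groups (list medians -0.79, -0.69 and -0.52). Hs6st2, a heparan sulfate sulfotransferase, fell from 55.8 ± 6.8 FPKM to 0.513 ± 0.274, 1.9 ± 1.79 and 0.443 ± 0.0207 FPKM (adjusted p = 2.38e-07, 9.43e-07 and 2.02e-07; 0.89 FPKM in vivo without mouse 3), and its relative Hs6st1 from 46.4 ± 9.32 to 8.96 ± 2.18, 13.5 ± 1.74 and 12.5 ± 0.213 FPKM. Hs3st3b1 rose to 6.95 ± 0.801 FPKM in in vitro iSEPs from 1.57 ± 0.325 FPKM (adjusted p = 0.000469) and lay above keratinocytes there (1.39 ± 0.511 FPKM, adjusted p = 0.00358, and 0.0917 without mouse 2).

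Inside the cell, most receptor adaptors were not called. Of 12, 3, 2 and 2 rose and 1 fell in each comparison with ADSCs, shares below those of all genes, and of 10 genes of the RAS and MAP kinase chain, 4, 3 and 3 rose and 3 fell in each, near the shares of all genes. Hras rose from 28.4 ± 5.16 FPKM to 77.8 ± 7.02, 85.2 ± 10.7 and 99.7 ± 5.99 FPKM (adjusted p = 1.04e-05, 5.96e-06 and 1.71e-06), and Nras from 22.7 ± 3.21 to 46.0 ± 2.91, 42.2 ± 8.46 and 61.9 ± 0.874 FPKM. The adaptor Shc1 fell from 37.6 ± 2.81 FPKM to 17.0 ± 2.64, 18.0 ± 2.38 and 18.5 ± 0.293 FPKM (adjusted p = 3.19e-05, 6.33e-05 and 7.99e-05).

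Feedback inhibitors, which FGF signalling itself induces, went both ways. Of 11 tested, 6, 6 and 5 fell and 3, 3 and 1 rose against ADSCs (54.5%, 54.5% and 45.5% fell, and 27.3%, 27.3% and 9.09% rose; list medians -1.06, -1.23 and -0.48). The Sprouty gene Spry1 fell from 30.7 ± 4.49 FPKM to 4.45 ± 1.21, 5.09 ± 0.68 and 1.3 ± 0.467 FPKM (adjusted p = 1.19e-06, 2.24e-06 and 4.4e-08), and Spry2 from 21.3 ± 7.18 to 3.78 ± 0.827, 4.48 ± 0.465 and 5.26 ± 0.354 FPKM. Spry1 was higher in both iSEP groups than in keratinocytes, by 1.24 in in vitro iSEPs (adjusted p = 0.00382, and 0.0906 without mouse 2 and 0.0614 without mouse 3) and by 1.42 in in vivo iSEPs (adjusted p = 0.00219, and 0.168 without mouse 2). Dusp7, a phosphatase that removes phosphate from ERK, rose from 6.73 ± 1.42 FPKM to 86.7 ± 7.72, 76.7 ± 15.8 and 94.6 ± 3.75 FPKM (adjusted p = 2.14e-08, 3.25e-08 and 1.47e-08). Dusp4, another phosphatase of this kind, fell from 16.3 ± 7.12 FPKM to 2.11 ± 1.09 FPKM in in vitro iSEPs (adjusted p = 0.0153) and 3.39 ± 5.52 FPKM in in vivo iSEPs (adjusted p = 0.0104; 0.203 FPKM without mouse 3). Keratinocytes held 11.55 ± 5.79 FPKM of it and were not called (adjusted p = 0.612). The in vitro call of Dusp4 was lost without mouse 1 (adjusted p = 0.0736), without mouse 2 (0.0608), without the ADSCs of mouse 3 (0.0597) and without in vitro mouse 1 (0.0536), and the in vivo call without mouse 1 (0.0745) or mouse 2 (0.135). Of 6 target genes tested, 2, 4 and 3 fell (33.3%, 66.7% and 50%) and 1 rose in each comparison (16.7%). The ETS factor Etv5 fell from 4.16 ± 0.214 FPKM to 0.576 ± 0.521, 0.825 ± 0.414 and 1.31 ± 0.677 FPKM (adjusted p = 0.000236, 0.000745 and 0.00311). Ccnd1, cyclin D1, rose from 16.7 ± 4.1 FPKM to 99.6 ± 29.2, 34.5 ± 8.64 and 94.9 ± 34.7 FPKM (adjusted p = 5.68e-05, 0.0222 and 7.59e-05), and its in vivo call was lost without mouse 2 (adjusted p = 0.2), without the ADSCs of mouse 2 (0.0908) and without in vivo mouse 1 (0.079).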

How the data were processed

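RNA from 12 cultures was made into libraries with an Illumina TruSeq kit, per the labels' protocols, and the sources used here do not give whether it marks strand. FastQC 0.11.5, STAR 2.5.1b, HOMER and mm10 are named in the submitters' processing notes. The authors deposited 1 table of FPKM values, which per the file headers HOMER summed over RefSeq exons with 1 entry per gene, on the transcript's strand. If the kit does not mark strand, reads of overlapping genes cannot be told apart. The table holds 3 columns that match no sample given here, and they were not used.

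Values were taken as log2(FPKM + 1), and genes with 1 FPKM in at least 3 libraries (12364) were fitted with limma 3.58.1 in R 4.3.3: 4 group means over 12 libraries, trended variances, 6 two-sided comparisons, Benjamini-Hochberg adjustment over all genes fitted. Fold values are ratios of mean FPKM, and log2 differences understate the change of low genes. Members under the filter were tested by exact permutation. No count model was applied to FPKM. Low values were whole multiples of 1 read (100% within 0.15 reads), which gave the depth and the reads quoted.

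The members and lists were chosen with earlier results of these data known. Named pathway genes are, per list, up to 4 with a highest group mean of at least 1 FPKM and a call in any comparison, by largest difference, and likeness to a member is Pearson's r over 12 libraries. Further genes in the plot of pathway differences are all tested members of their lists. The labels tie each mouse number to 1 animal, so the numbers pair the libraries. Deviations of same-numbered libraries from their group means had a median correlation of 0.0451 (18 pairs, -0.178 to 0.21, 6 over 0.1). The block on mouse number, other pseudocounts, filters and scalings, fits of the groups compared alone and fits without single libraries or mice were alternatives. P-values measure the spread between these cultures.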

Additional observations from a re-analysis of the deposited data

How the results depend on the processing

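Against ADSCs, all 6 members in the fit kept their direction under every alternative tried, and calls were lost for Fgfr1 in in vitro iSEPs and Fgfr3 in keratinocytes, as given above. The replicate block on mouse number changed no member's call. It moved the genes called between in vivo and in vitro iSEPs from 201 to 128 and, with the pairing included, ended the calls of Gpc3, Fosl1 and Sos2 between in vitro iSEPs and keratinocytes (adjusted p = 0.0525, 0.073 and 0.0611), of Nras between in vivo iSEPs and keratinocytes (0.0682) and of Ccnd1 and Egr1 between the iSEP groups (0.0755 and 0.0736). A fit of the groups compared alone called 424 genes in place of 925 between in vivo iSEPs and keratinocytes, and 1 in place of 201 between the iSEP groups. Without single libraries or mice, genes called ranged from 4295 to 6338 for in vitro iSEPs against ADSCs, 3486 to 6281 for in vivo iSEPs, 3920 to 6322 for keratinocytes, 193 to 1180 for in vitro iSEPs against keratinocytes, 35 to 1676 for in vivo iSEPs against keratinocytes and 2 to 360 between the iSEP groups. The lowest number came without mouse 2 each time. Members called ranged from 0 to 3 between in vivo iSEPs and keratinocytes and from 0 to 1 between the iSEP groups, and each member call rested on leaving out mouse 3 or its in vivo library. Differences near 0 changed sign, none of them called: Fgf2 between in vitro iSEPs and keratinocytes with a pseudocount of 0.1 (-0.015), with quantile normalization (-0.043) and without single libraries or mice (-0.062 to 0.15), Fgf7 there (-0.012 to 0.59), and without single libraries or mice Fgfr2 (-0.013 to 0.79) and Fgfbp1 (-1.05 to 0.28) between in vivo iSEPs and keratinocytes and Fgfr2 between the iSEP groups (-0.92 to 0.057).

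Depth limits Fgf1, Fgf2 outside ADSCs, Fgf10 outside ADSCs and in vitro iSEPs, and Fgfbp1 and Fgfr3 in ADSCs, where values rest on few reads. With 3 libraries a group and wide spread among the in vivo iSEPs, differences among the epithelial groups are known only within the intervals given. Splice forms are not resolved, and the medium changes with the cell type.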

Other observations

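Genes whose pattern over the 12 libraries was most like that of a member are given as a description, by Pearson's r of log2(FPKM + 1) among the genes tested. The points fall into groups and share libraries, so r mostly reflects the span from ADSCs to the epithelial groups. Fgfr1 was followed most closely by Eml1 (r = 0.995), Lhfpl2 (0.985) and Bgn (0.984), of which Bgn, the matrix proteoglycan biglycan, went from a mean of 2048 FPKM (ADSCs) to 72.4 (in vitro iSEPs), 12.4 (in vivo iSEPs) and 16.5 FPKM (keratinocytes). Fgf7 was followed by Cacna2d1 (0.997), Wipf1 (0.996) and Efemp2 (0.995), an elastic fibre protein with 298 FPKM in ADSCs and 3.66 to 6.57 FPKM in the other group means. Fgf10 was followed by Cd34 (0.966), Sned1 (0.966) and Capn6 (0.944). Cd34, a surface marker of adipose stromal and hair follicle cells, had means of 2.62, 1.02, 0.198 and 0.297 FPKM in the order of groups given for Bgn.

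On the epithelial side, Fgfr2 was followed by Rapgef5 (r = 0.982), Ppp2r3a (0.978) and Tnni2 (0.977), and Fgfbp1 by Rab38 (0.995), D1Ertd622e (0.994) and Dmkn (0.993). Dmkn, the epidermal secreted protein dermokine, had means of 0.322, 678, 319 and 394 FPKM in the same order of groups. Fgfr3, the member that separated in vitro iSEPs from keratinocytes, was followed by Cdh13 (0.99), Nod2 (0.989) and Mef2a (0.983). Cdh13, a cadherin anchored by a lipid, had means of 0.353, 33.2, 16.6 and 2.12 FPKM in the same order of groups, and Nod2, a sensor of bacterial cell wall, had 0.00467, 5.92, 2.78 and 0.804 FPKM. Both have the order of group means seen for Fgfr3. Their differences were chosen for this likeness and were not tested.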
